A study of Mus musculus with 8 samples.

Results

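Fibronectin, the tenascins, the fasciclin-domain proteins and the SPARC family are adhesive and matricellular proteins of the extracellular matrix. The 10 genes described here, *Fn1*, *Vtn*, *Tnc*, *Tnn*, *Postn*, *Tgfbi*, *Sparc*, *Smoc1*, *Smoc2* and *Ecm1*, were the rows of a table of 54658 gene symbols whose name equalled one of these, and all 10 were present once. RNA-Seq was performed on primary articular chondrocytes from the femoral heads of wild-type mice aged 3 weeks, isolated with collagenase and cultured in medium with fetal bovine serum. Cells in 4 samples were treated with IL-1β at 1 ng/mL for 24 h and cells in 4 samples with vehicle, and the comparison asks how the chondrocyte transcriptome responds to this proinflammatory cytokine. The labels do not say whether samples of a group came from separate mice or cultures, so p-values measure only the spread between these samples, which may be technical.

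Fibronectin is secreted as a dimer and assembled into fibrils by cells through integrin receptors. Matricellular proteins such as SPARC, the SMOC proteins and the tenascins are secreted into the matrix but mainly adjust how cells adhere, migrate and respond to growth factors. In cartilage, fibronectin surrounds the chondrocyte and its fragments are known to stimulate the production of matrix-degrading proteases, while tenascin-C is prominent in developing and injured joint tissue.

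Abundances are given as CPM, a gene's share of the sample's counts in parts per 1000000, scaled with TMM factors that lay between 0.984 and 1.01, as mean ± SD (n = 4). Totals per sample were 10992355 to 17104351 counts with IL-1β and 13970959 to 17456063 with vehicle, and 3 counts, the smallest abundance taken as shown, correspond to 0.172 to 0.273 CPM. The 14404 genes with more than 1 CPM in at least 4 samples were tested, and differentially expressed genes (DEGs) changed by more than 1 on the log2 scale in either direction with an adjusted p-value under 0.05. Replicates of a group differed from each other by more than sampling noise (chi-square per degree of freedom 1.98 to 6.35). This does not show that they were separate mice or cultures. Each was counted as a sample. The labelled cell type was checked on 10 chondrocyte markers, all of which were detected in both groups, led by *Col2a1* and *Col11a1*, genes of fibrillar cartilage collagens.

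Integrins recognise fibronectin and several other matrix proteins at the tripeptide of arginine, glycine and aspartate (RGD). The codons of this tripeptide are shown as a feature of sequence in which these genes differ. The longest coding sequences of *Fn1*, *Tnn*, *Tgfbi* and *Vtn* held them, 4 of the 10 genes, and those of the other genes did not. They stood in the coding exons below, given 5′ to 3′ on the coding strand from the mouse genome GRCm38 with GENCODE vM21, with the RGD codons in capitals.
Fn1, codon 1614, chr1:71606737-71606766, minus strand: gctgtcactggcCGTGGGGACagtccagca
Fn1, codon 2181, chr1:71597434-71597463, minus strand: ggtcatgttcccAGGGGAGACgtagactac
Tnn, codon 427, chr1:160139277-160139306, minus strand: gttgtgcccatcCGAGGTGATctggaggga
Tgfbi, codon 642, chr13:56637143-56637172, plus strand: cgaccacaagaaCGAGGAGATgagctggca
Vtn, codon 64, chr11:78499616-78499723, plus strand, joined across an intron: ccccaagtaacgCGGGGGGACgtgttcact
In the first *Fn1* window the RGD codons are followed by a codon for serine, as in the classical cell-binding site of fibronectin. Among 21539 coding genes, 7.25% held these codons in their longest coding sequence, with a median length of 396 codons, and the 10 genes ran from 332 codons (*Sparc*) to 2477 codons (*Fn1*). A match is a description of the sequence and does not show that an integrin binds there.

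With IL-1β, *Fn1*, *Sparc*, *Tnc*, *Tgfbi* and *Smoc2* were lower and *Smoc1* and *Ecm1* were higher. Of the 10 genes, 7 passed the filter on low counts. Among these, *Smoc2*, *Tgfbi* and *Tnc* were downregulated DEGs, compared to 2.35% of all genes tested, and 0 were upregulated DEGs, compared to 2.86% of all genes tested. At an adjusted p-value under 0.05 without the fold threshold, edgeR's quasi-likelihood test called 5 of the 7 lower and 2 higher, where 19.8% of all genes tested were lower and 20.4% higher. The groups did not overlap for any of the 7, and they did not overlap for 36.8% of all genes tested. The median log2 fold change of the 7 was -0.61, beside -0.0012 over all genes tested. *Tnn*, *Postn* and *Vtn* stayed under the filter and are given by their counts. In bulk samples, fewer cells expressing a gene and less RNA per cell cannot be told apart.

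**Figure D1:**
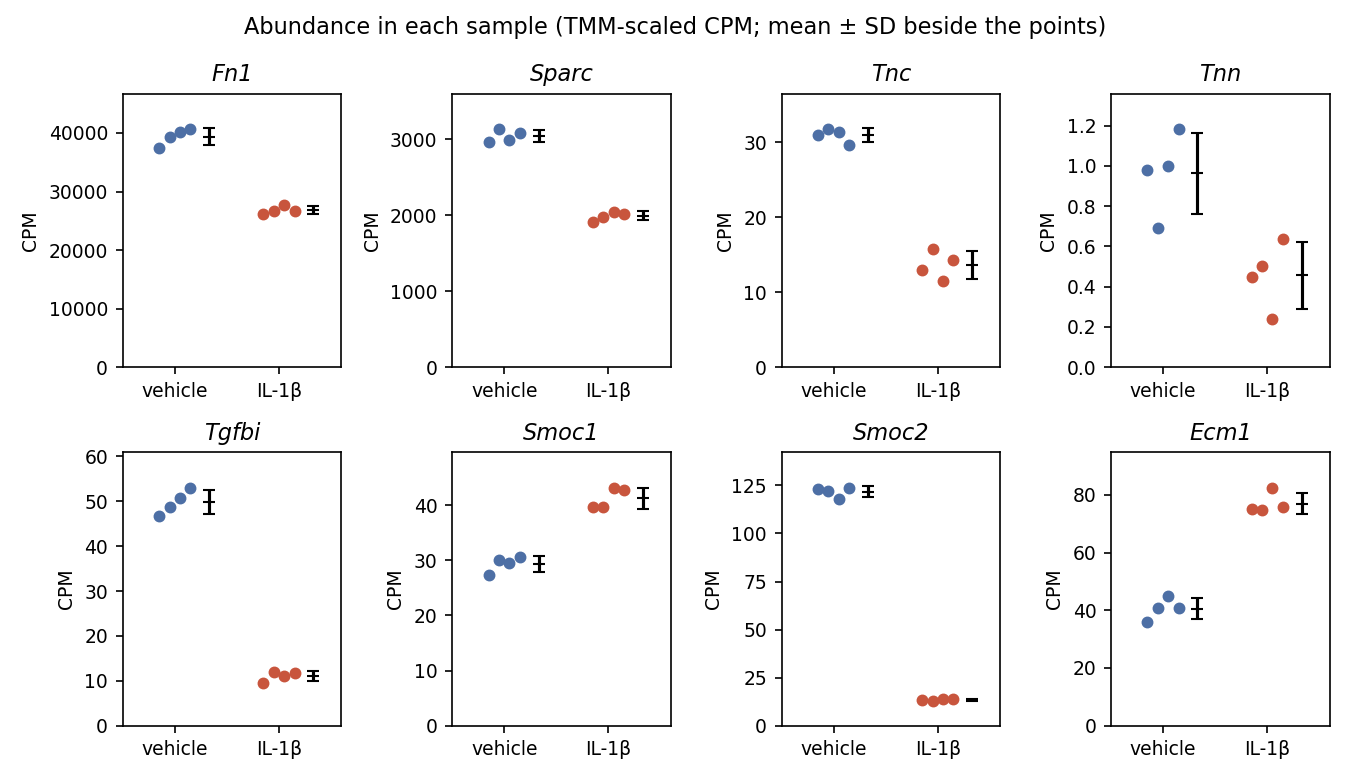
TMM-scaled CPM (vertical axes, each starting at 0) of 8 genes in the vehicle and IL-1β samples, 1 point per sample, with the group mean ± SD beside the points. Each IL-1β sample was lower than each vehicle sample for *Fn1*, *Sparc*, *Tnc*, *Tnn*, *Tgfbi* and *Smoc2*, and higher for *Smoc1* and *Ecm1*.

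*Fn1* (chr1:71585520-71653200, minus strand), which encodes fibronectin, was the most abundant of the 10 genes in either group and fell by a modest fraction. The IL-1β samples measured 26099, 26729, 27668 and 26748 CPM and the vehicle samples 37386, 39369, 40200 and 40649 CPM. All 4 IL-1β samples lay below the lowest vehicle sample. The means were 26811 ± 646 CPM and 39401 ± 1444 CPM, a 1.47-fold lower abundance with IL-1β (log2 fold change -0.56, SE 0.0204, adjusted p = 3.28e-19 by edgeR's quasi-likelihood test), which is within the fold threshold for a DEG. *Fn1* alone took 3.78 to 4.06% of all counts with vehicle and 2.63 to 2.72% with IL-1β. Per kilobase of gene length it ranked 7th with vehicle and 13th with IL-1β among the genes tested. The locus has 17 annotated transcripts, 9 of them protein-coding, and counts per gene cannot tell the splice forms of fibronectin apart. A small part of its exons overlaps *Apol7d* on the other strand, and whether reads were counted by strand is not given in the sources used here.

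*Vtn* (chr11:78499091-78502324, plus strand) encodes vitronectin, a serum adhesion protein that binds αv integrins, and its RNA was not detectable at this depth. The IL-1β samples held 1, 0, 0 and 0 counts and the vehicle samples 0, 0, 0 and 1, so both groups were under the limit of 3 counts and no fold is given.

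The tenascin genes among those described here, *Tnc* and *Tnn*, were lower with IL-1β, whereas *Tnxb*, a tenascin gene outside this set given below, was higher. *Tnc* (chr4:63959785-64047015, minus strand) encodes tenascin-C, a hexameric glycoprotein that modulates adhesion to fibronectin. It was at 12.9, 15.8, 11.5 and 14.3 CPM with IL-1β and at 30.9, 31.7, 31.4 and 29.6 CPM with vehicle. The groups were widely separated. The coefficient of variation was 13.6% in the IL-1β samples and 2.94% in the vehicle samples, where counting alone gives 7.27% and 4.50%. The vehicle value is below that of counting and is thus not a measure of its precision. From 30.9 ± 0.910 to 13.6 ± 1.85 CPM, *Tnc* was 2.28-fold lower (log2 fold change -1.19, SE 0.0731, adjusted p = 5.96e-14 by edgeR's quasi-likelihood test). Its fold change was close to the threshold: tested against a log2 fold change of 1 by glmTreat, the adjusted p was 0.0597 and the call was lost.

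*Tnn* (chr1:160085029-160153580, minus strand) encodes tenascin-W, known mainly from bone and its surrounding stroma. With IL-1β it had 5, 7, 4 and 9 counts, and with vehicle 17, 12, 14 and 18 counts. Few as these reads were, each IL-1β sample had fewer than each vehicle sample. The means were 0.458 ± 0.167 CPM and 0.964 ± 0.202 CPM, and a two-sided exact permutation test of log2(CPM + 1) gave p = 0.0286, the smallest that 4 samples against 4 allow. Without the filter on low counts, *Tnn* was a downregulated DEG (log2 fold change -1.08, adjusted p = 0.0215 by edgeR's quasi-likelihood test). That fit called 571 downregulated genes, beside 339 in the main test. By the same test, the adjusted p of *Fn1* was 3.32e-128 without the filter and 3.28e-19 with it. P-values of the unfiltered fit are thus not comparable with those of the main test.

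The fasciclin-domain genes *Tgfbi* and *Postn* encode related secreted matrix proteins, both known to be inducible by TGF-β, and they were far apart in abundance. *Tgfbi* (chr13:56609523-56639562, plus strand) was at 9.46, 11.9, 11.1 and 11.7 CPM with IL-1β and at 46.8, 48.8, 50.8 and 53.0 CPM with vehicle. No IL-1β sample came near a vehicle sample. Its mean fell from 49.9 ± 2.68 to 11.0 ± 1.11 CPM, 4.48-fold lower (log2 fold change -2.16, SE 0.0646, adjusted p = 2.29e-21 by edgeR's quasi-likelihood test), the 48th largest fall of the 14404 genes tested. *Postn* (chr3:54361109-54391037, plus strand), which encodes periostin, had 1, 6, 6 and 2 counts with IL-1β and 7, 2, 1 and 1 counts with vehicle. The *Postn* groups overlapped, and the exact permutation test gave p = 0.371, so a difference was not detectable at this depth.

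Among the SPARC-family genes of this set, the abundant *Sparc* fell modestly, *Smoc2* fell most and *Smoc1* rose, and relatives outside the set are given below. *Sparc* (chr11:55394500-55423183, minus strand) encodes osteonectin, a calcium- and collagen-binding protein. It was at 1914, 1983, 2047 and 2021 CPM with IL-1β and at 2959, 3133, 2984 and 3086 CPM with vehicle. The spread within each group was far smaller than the gap between the groups. The means of 1992 ± 57.8 and 3041 ± 82.4 CPM differed 1.53-fold (log2 fold change -0.61, SE 0.0270, adjusted p = 2.98e-17 by edgeR's quasi-likelihood test), which is not a DEG by the fold threshold.

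*Smoc2* (chr17:14279506-14404790, plus strand) encodes a SPARC-related modular calcium-binding protein of the matrix. The IL-1β samples held 13.2, 13.0, 13.9 and 14.0 CPM and the vehicle samples 123.1, 122.3, 117.7 and 123.8 CPM. Both groups were narrow and wholly separate. *Smoc2* thus fell from 121.7 ± 2.74 to 13.5 ± 0.487 CPM, 8.98-fold lower (log2 fold change -3.17, SE 0.0472, adjusted p = 1.19e-28 by edgeR's quasi-likelihood test). This was the 11th largest fall of the 14404 genes tested.

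*Smoc1* (chr12:81026808-81186414, plus strand) encodes the closest relative of SMOC2 among the members, a protein known to antagonise BMP signalling. It was at 39.6, 39.7, 43.2 and 42.7 CPM with IL-1β and at 27.4, 30.0, 29.5 and 30.7 CPM with vehicle. Every IL-1β sample was above every vehicle sample. The increase from 29.4 ± 1.41 to 41.3 ± 1.90 CPM was 1.41-fold (log2 fold change 0.50, SE 0.0512, adjusted p = 3.78e-09 by edgeR's quasi-likelihood test) and did not reach the fold threshold.

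*Ecm1* (chr3:95734147-95739569, minus strand) encodes extracellular matrix protein 1, a secreted glycoprotein that binds other matrix proteins. It measured 75.0, 74.6, 82.5 and 76.0 CPM with IL-1β and 35.9, 40.8, 44.8 and 40.8 CPM with vehicle. The groups did not overlap. Its mean rose from 40.6 ± 3.65 to 77.0 ± 3.70 CPM, 1.91-fold (log2 fold change 0.93, SE 0.0512, adjusted p = 4.80e-15 by edgeR's quasi-likelihood test), just under the fold threshold. The exact permutation test gave p = 0.0286, the smallest possible, for each of the 7 genes tested.

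**Figure D2:**
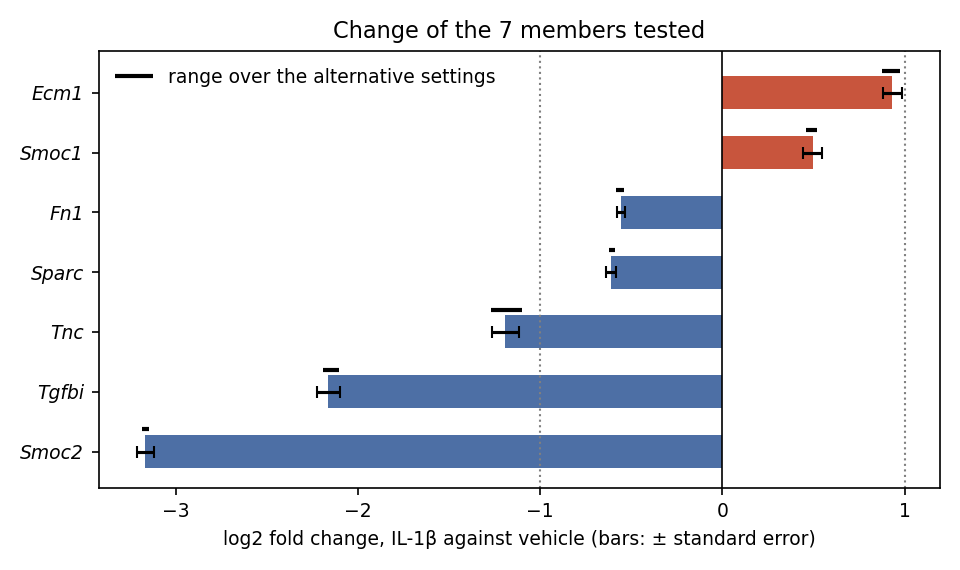
Log2 fold change of IL-1β against vehicle (horizontal axis) for the 7 genes tested, with bars for ± SE, dotted lines at the fold threshold and a black line for the range over the alternative settings. *Smoc2*, *Tgfbi* and *Tnc* lay below -1, *Fn1* and *Sparc* between -1 and 0, and *Smoc1* and *Ecm1* between 0 and 1.

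The order of the genes by level per length was led by the same pair in both groups, and the middle of the order changed. With vehicle, *Fn1* was at 3372 CPM per kilobase and *Sparc* at 803, followed by *Smoc2* at 17.5, *Ecm1* at 16.1, *Tgfbi* at 13.2, *Smoc1* at 8.40 and *Tnc* at 3.98 CPM per kilobase. The vehicle samples of *Smoc2* and *Ecm1* overlapped, and the other neighbours in this order down to *Postn* were separate. With IL-1β, *Fn1* was at 2294 CPM per kilobase and *Sparc* at 526, now followed by *Ecm1* at 30.5, *Smoc1* at 11.8, *Tgfbi* at 2.93, *Smoc2* at 1.95 and *Tnc* at 1.75 CPM per kilobase, of which *Smoc2* and *Tnc* overlapped. *Smoc2* thus moved from the third to the sixth place. In either group *Tnn* came eighth, at 0.166 and 0.0787 CPM per kilobase, and the means of *Postn* and *Vtn* were lower. The samples of *Tnn* and *Postn* overlapped with IL-1β, and those of *Postn* and *Vtn* in both groups. Together the 10 genes took 4.10 to 4.40% of all counts with vehicle and 2.84 to 2.94% with IL-1β, and *Fn1* supplied 92.0 to 92.7% of those in every sample.

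**Figure D3:**
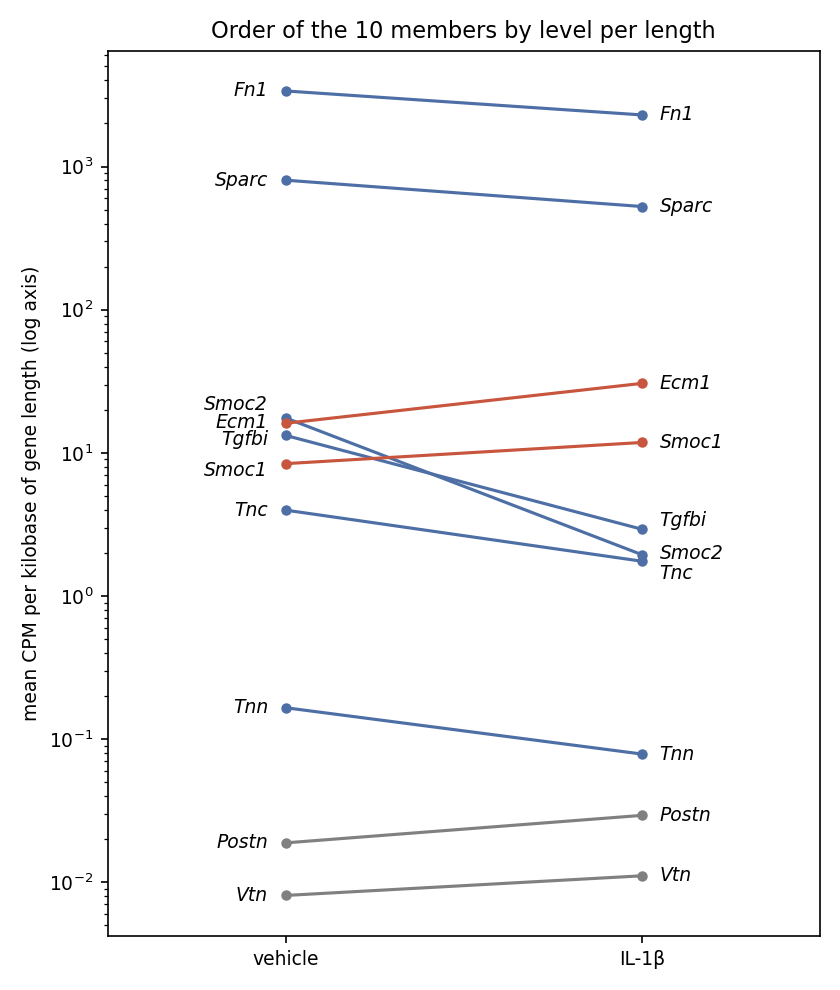
Mean CPM per kilobase of gene length (vertical log axis) of the 10 genes with vehicle and with IL-1β, with a line joining the means of each gene. Lines are blue where all IL-1β samples were lower, red where all were higher and grey where the groups overlapped, and the *Smoc2* line crosses those of *Ecm1*, *Smoc1* and *Tgfbi*.

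The spread between replicates was above what counting alone gives for some genes, and near or below it for others. For *Fn1*, the coefficient of variation was 2.41% with IL-1β and 3.67% with vehicle, where counting gives 0.163% and 0.126%. For *Smoc2* with IL-1β it was 3.60%, below the 7.26% that counting gives at the mean count per sample. That group held 758 reads in all. Its small SD is thus not a measure of its precision. Counting gives 40.0% for *Tnn* at its mean count per sample with IL-1β, where the group held 25 reads in all, and 36.4% was observed.

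Related genes were also compared within each sample, as the log2 ratio of their counts plus 0.5, which does not depend on the scaling between samples. In all, 3 ratios were computed. *Smoc1* to *Smoc2*, whose translated coding sequences were 56.4% identical, changed from -2.05 ± 0.0781 with vehicle to 1.61 ± 0.0225 with IL-1β. The count of *Smoc2* was 3.99 to 4.49 times that of *Smoc1* in the vehicle samples, and that of *Smoc1* was 2.99 to 3.10 times that of *Smoc2* in the IL-1β samples, so the more frequently counted gene of the pair switched. The difference was 3.66 on the log2 scale (two-sided exact permutation p = 0.0286, Benjamini-Hochberg adjusted p = 0.0429 over the 3 ratios).

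*Postn* to *Tgfbi*, 45.5% identical, changed from -8.28 ± 1.05 to -5.43 ± 0.773 (difference 2.86, exact permutation p = 0.0286, adjusted p = 0.0429). *Postn* had at most 7 counts in any sample, and its own groups overlapped, while *Tgfbi* fell. *Tnc* to *Tnn*, 34.9% identical, was at 4.98 ± 0.352 with vehicle and 4.85 ± 0.428 with IL-1β. That difference of -0.13 did not exceed the spread between replicates (exact permutation p = 0.629), and the few *Tnn* counts limit its precision.

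**Figure D4:**
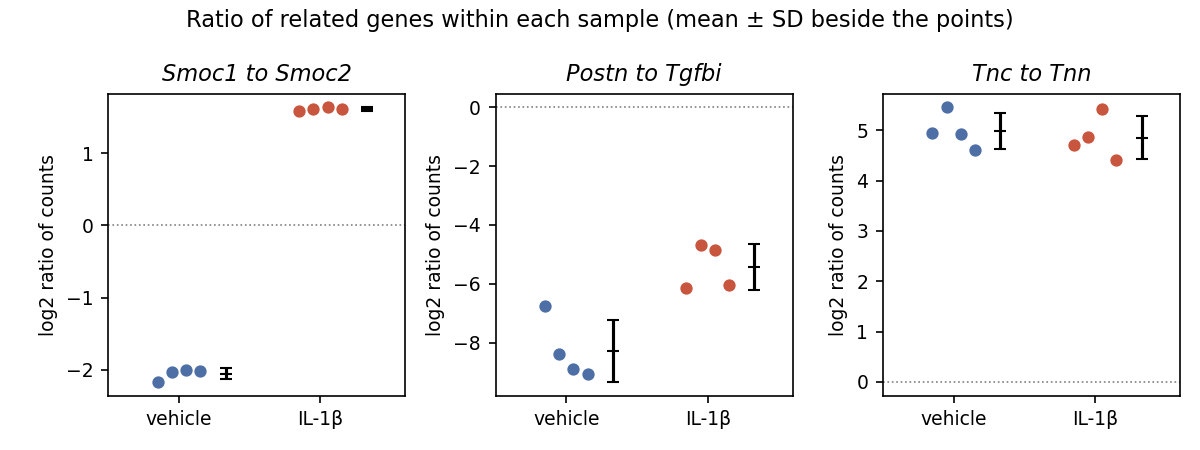
Log2 ratio of counts (vertical axes) of 3 pairs of related genes in each vehicle and IL-1β sample, with the mean ± SD beside the points. *Smoc1* to *Smoc2* lay below 0 in the 4 vehicle samples and above 0 in the 4 IL-1β samples, and the groups overlapped for *Tnc* to *Tnn*.

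Other matricellular genes moved in both directions. Of 14 listed, 10 were tested, and 1 was an upregulated and 3 were downregulated DEGs, beside 2.86% and 2.35% of all genes tested. At an adjusted p-value under 0.05, 4 were higher and 5 lower, beside 20.4% and 19.8% of all genes tested. The median log2 fold change was -0.35. *Fstl1*, a follistatin-like relative of SPARC, rose from 77.9 ± 2.42 to 342.0 ± 8.18 CPM (log2 fold change 2.13, adjusted p = 4.88e-28, edgeR). *Spock2*, a SPARC-related proteoglycan, fell from 16.1 ± 1.57 to 4.22 ± 1.14 CPM (log2 fold change -1.89, adjusted p = 3.54e-13, edgeR). The CCN genes *Ctgf* (log2 fold change -1.39) and *Wisp2* (-1.18) were also downregulated. *Spp1*, which encodes the RGD protein osteopontin and had the highest level per length in this list, rose from 1374 ± 48.9 to 2394 ± 64.1 CPM (log2 fold change 0.80, adjusted p = 2.23e-19, edgeR).

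The nearest relatives of the members are named here after their values were seen. *Tnxb*, the gene of tenascin-X, was higher with IL-1β (log2 fold change 0.90, adjusted p = 1.74e-06, edgeR), opposite in sign to *Tnc*. *Sparcl1*, the gene of hevin, was at 4.90 ± 0.533 CPM with IL-1β, compared to 6.15 ± 0.830 with vehicle, and did not pass the test (log2 fold change -0.31, adjusted p = 0.0525, edgeR). *Tnr*, the gene of tenascin-R, had at most 1 count in any sample.

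Receptors for these proteins moved in both directions, most of them by little. Of 13 genes for integrin subunits, syndecans and the urokinase receptor, 10 were tested. Of these, 1 was an upregulated and 0 were downregulated DEGs, beside 2.86% and 2.35% of all genes tested. At an adjusted p-value under 0.05, 4 were higher and 5 lower, beside 20.4% and 19.8% of all genes tested, and the median log2 fold change was -0.02. *Sdc4*, the gene of syndecan-4, a co-receptor for fibronectin, was the DEG and had the highest level per length of the list, rising from 483.0 ± 11.8 to 1105 ± 24.7 CPM (log2 fold change 1.19, adjusted p = 3.69e-23, edgeR). *Itga5*, named after its value was seen because it encodes the α subunit of the classical fibronectin receptor, fell from 98.8 ± 4.21 to 71.8 ± 3.50 CPM (log2 fold change -0.46, adjusted p = 2.22e-10, edgeR). Its partner subunit gene *Itgb1* was nearly level (log2 fold change -0.08, adjusted p = 0.0320, edgeR).

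Receptors through which matrix fragments are sensed were mostly higher with IL-1β. All 6 genes of this list were tested, and 3 were upregulated DEGs, beside 2.86% of all genes tested. At an adjusted p-value under 0.05, 5 were higher, beside 20.4% of all genes tested. The median log2 fold change was 1.00. *Tlr2*, a Toll-like receptor gene, rose from 13.2 ± 0.465 to 58.7 ± 3.31 CPM (log2 fold change 2.15, adjusted p = 8.60e-23, edgeR). *Cd14*, a co-receptor gene, was raised by 1.86 and *Cd44*, a hyaluronan receptor gene, by 1.51 on the log2 scale. *Myd88*, the gene of the shared adaptor and the one with the highest level per length in this list with vehicle, changed little (log2 fold change 0.12, adjusted p = 0.0331, edgeR).

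The TGF-β pathway, whose ligands are known to induce *Tgfbi* and *Fn1*, had all 16 listed genes tested. Of these, 1 was an upregulated and 0 were downregulated DEGs, beside 2.86% and 2.35% of all genes tested. At an adjusted p-value under 0.05, 6 were higher and 8 lower, beside 20.4% and 19.8% of all genes tested. The median log2 fold change was -0.13. The DEG was *Tgfbr3*, the gene of the co-receptor betaglycan, which rose from 74.1 ± 2.33 to 276.2 ± 2.01 CPM (log2 fold change 1.90, adjusted p = 1.64e-27, edgeR). *Ski*, the gene of a repressor of SMAD signalling and the one with the highest level per length in this list, was lower (log2 fold change -0.28, adjusted p = 2.84e-08, edgeR). The ligand genes, named after their values were seen, differed in sign, with *Tgfb1* higher (0.47), *Tgfb2* lower (-0.89) and *Tgfb3* lower (-0.60), each with an adjusted p-value under 0.05.

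Proteases that cleave matrix proteins were higher more often than lower. Of 14 listed genes 11 were tested, and 3 were upregulated and 0 downregulated DEGs, beside 2.86% and 2.35% of all genes tested. At an adjusted p-value under 0.05, 7 were higher and 1 lower, beside 20.4% and 19.8% of all genes tested. The median log2 fold change was 0.38. *Mmp3*, the stromelysin-1 gene, rose from 23.6 ± 1.47 to 1055 ± 69.0 CPM (log2 fold change 5.48, adjusted p = 1.12e-33, edgeR) and *Mmp13*, the collagenase-3 gene, from 32.1 ± 2.10 to 211.0 ± 4.94 CPM (2.71, adjusted p = 1.02e-28, edgeR). *Mmp12*, the macrophage elastase gene, was low, at 2 to 6 counts with vehicle and 36 to 61 with IL-1β (log2 fold change 3.55, adjusted p = 1.31e-11, edgeR). With vehicle it was at 0.143 to 0.394 CPM, so it passed the filter on low counts only through the IL-1β samples. Its being tested thus depended on its rise, which limits its place among the 3 upregulated DEGs. *Ctsk*, the cathepsin K gene, had the highest level per length of this list with vehicle and a log2 fold change of 0.30 (adjusted p = 3.77e-09, edgeR).

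**Figure D5:**
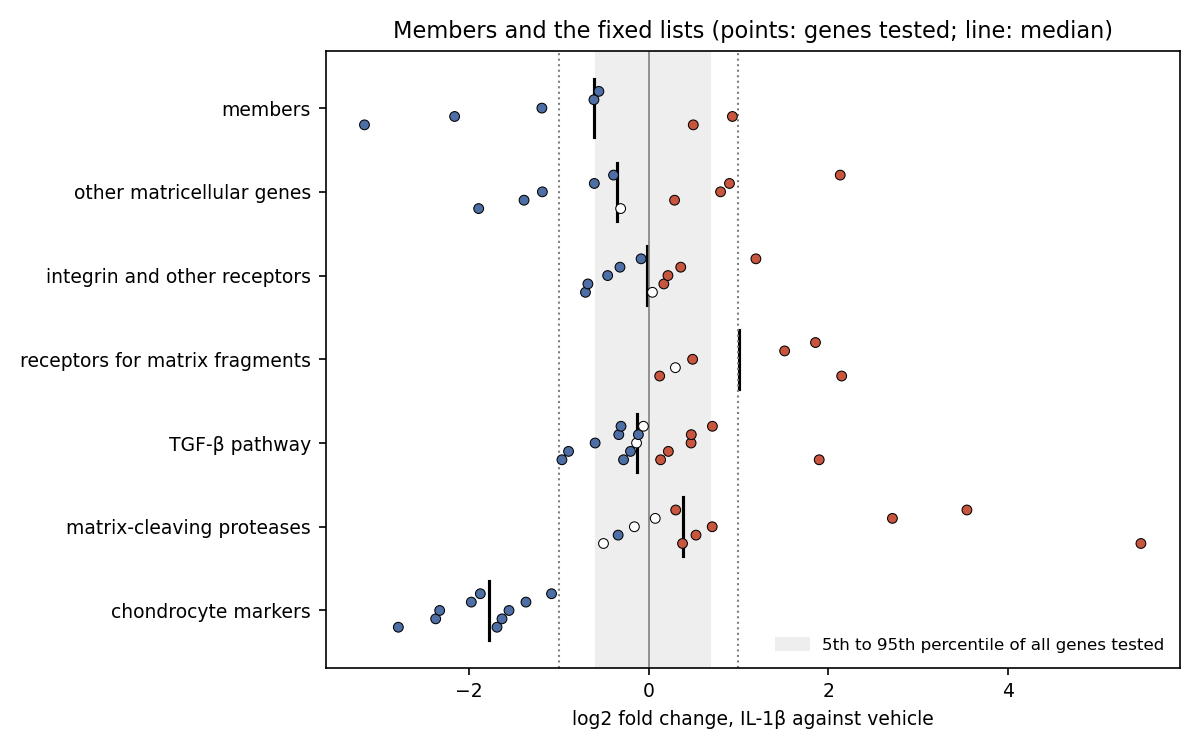
Log2 fold change of IL-1β against vehicle (horizontal axis) for each gene tested among the 10 genes ("members"), the 5 pathway lists and the chondrocyte markers, with a line at each median. Filled points passed an adjusted p-value under 0.05, dotted lines mark the fold threshold, and the grey band spans the 5th to 95th percentile of all genes tested, -0.59 to 0.68.

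Markers of cell types moved with the treatment, and their part in the changes of the 10 genes was not tested. Over all genes tested, 2.35% were downregulated DEGs, and 20.4% were higher and 19.8% lower at an adjusted p-value under 0.05. All 10 chondrocyte markers tested were downregulated DEGs, with a summed level of 4194 to 4606 CPM with IL-1β against 16155 to 16776 CPM with vehicle and a median log2 fold change of -1.78. *Col2a1* fell by 1.98 and *Col11a1* by 1.64 on the log2 scale, more than *Fn1* and *Sparc* and less than *Smoc2*. The 8 fibroblast markers summed to 1404 to 1568 CPM with IL-1β, compared to 2473 to 2515 with vehicle, with 1 higher and 3 lower of 5 tested, and most of this sum was *Col6a1* (log2 fold change -0.78), followed by *Pdgfrb* (-1.06). The fibroblast markers *Thy1*, *Pi16* and *Dpt* stayed under the filter. The 6 macrophage markers summed to 15.9 to 19.0 CPM with IL-1β, compared to 11.5 to 12.6 with vehicle, with 1 higher and 1 lower of 2 tested. Most of this sum was *Cd68*, which was higher (log2 fold change 0.67), while *Lyz2*, the next by level, was lower (-0.60, adjusted p = 0.0364, edgeR), and *Adgre1* and *Cd163* had at most 3 counts in any sample. The 5 endothelial markers summed to 1.06 to 1.66 CPM with IL-1β, compared to 0.865 to 1.71 with vehicle, and the 5 erythroid markers to 1.43 to 1.80 and 0.920 to 1.67 CPM. Most of the erythroid sum was *Alas2*, at 1.39 ± 0.185 CPM with IL-1β and 1.23 ± 0.266 with vehicle. The 4 globin genes had at most 3 counts in any sample, with *Hbb-bt* at 0 in every sample.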

How the data were processed

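The authors trimmed the reads of 8 samples with cutadapt, mapped them to mm10 under GENCODE vM20 by STAR (version 2.4.2a in the submitters' processing notes, another in the paper's methods) and ran featureCounts. The deposited values are whole-number counts per gene symbol, without scaling, and gene lengths in bases (unit: other), from which levels per kilobase were computed. It is not stated if the study's RUVseq batch correction had been applied to these values, which were used as deposited.

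The main test was the quasi-likelihood test of edgeR 4.0.16 (with limma 3.58.1 in R 4.3.3) on TMM-normalized counts, with treatment as its single term. It covered the 14404 genes that exceeded 1 CPM in 4 or more samples, and p-values were adjusted over all of them by the Benjamini-Hochberg method. DESeq2 1.42.0, which the study used, was an alternative, as were other scalings and filters, the replicate number as a block, 1 RUVs factor, glmTreat, and each sample left out in turn. The code was tested on simulated data. Genes under the filter, and the ratios, were compared by exact permutation over 70 splits. These steps used Python 3.11.15 with scipy 1.17.1, numpy 2.4.6 and pandas 2.3.3, and matplotlib 3.10.9 for figures. Positions and coding sequences are from GENCODE vM21, in which the exon length of all 10 genes equalled the deposited length, and pairs were aligned after translation with Biopython 1.88.

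Totals were 10992355 to 17456063 counts per sample. The limit of 3 counts covers counting error alone, as the reads carried no stated molecular identifiers. Named genes were all 10 members, up to 4 DEGs by size of change and the gene of highest level per length in each pathway list, and up to 2 genes by mean CPM in each list of cell type markers. The members and lists were chosen with earlier results of these data known. The miRNA-Seq, the qPCR and the human samples of the study were not analysed here.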

Additional observations from a re-analysis of the deposited data

Results flagged for a closer look

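Single samples were compared with the other samples of their group by Dixon's ratio for each of the 7 genes tested in each group, 14 groups in all. The 1 sample that stood apart was replicate 3 with IL-1β for *Ecm1*, at 82.5 CPM compared to 74.6 to 76.0 CPM in the other 3 samples (ratio 0.833, above the 95% critical value for 4 samples). Chance gives such a sample in about 1 of 20 groups, or 0.7 of 14. Without this sample, the log2 fold change of *Ecm1* was 0.90 (adjusted p = 4.02e-14, edgeR), compared to 0.93 with it.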

How the results depend on the processing

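The 7 members tested kept their direction under all 16 alternatives, with log2 fold changes of -0.58 to -0.54 for *Fn1*, -0.62 to -0.59 for *Sparc*, -1.27 to -1.10 for *Tnc*, -2.19 to -2.11 for *Tgfbi*, -3.19 to -3.14 for *Smoc2*, 0.46 to 0.52 for *Smoc1* and 0.87 to 0.98 for *Ecm1*. Against a log2 fold change of 1 (glmTreat), which tests a stricter hypothesis, *Smoc2* and *Tgfbi* remained called, and *Fn1* (-0.56), *Sparc* (-0.61), *Tnc* (-1.19), *Smoc1* (0.50) and *Ecm1* (0.93) were not past the threshold, leaving 2 members lower and 0 higher. Over all genes, this setting called 262 upregulated and 175 downregulated DEGs, beside 412 and 339 in the main test, 635 and 571 without a filter on low counts, and 266 upregulated with a CPM above 1 in all 8 samples, where fewer genes were tested. Without the filter, *Tnn* was also called, giving 4 downregulated members. Leaving out 1 sample in turn gave 316 to 423 upregulated and 286 to 346 downregulated DEGs and, of the members, 3 downregulated in each case.

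The *Tnn* difference in log2(CPM + 1) ranged from -0.50 to -0.35 with 1 sample left out, with exact permutation p between 0.0286 and 0.0571, and the *Postn* to *Tgfbi* difference from 2.59 to 3.36 with the same range of p. The p of 0.0571 was that of *Tnn* without IL-1β replicate 1 (-0.43), 2 (-0.45) or 3 (-0.35) or vehicle replicate 4 (-0.38), and that of *Postn* to *Tgfbi* without IL-1β replicate 1 (3.09), 2 (2.60), 3 (2.66) or 4 (3.06). The *Tnc* to *Tnn* difference, which was not past the threshold, ranged from -0.32 to 0.03 and changed sign without IL-1β replicate 4 (0.018) and without vehicle replicate 2 (0.028). With 1 sample left out, the exact permutation p moves in coarse steps. The *Tnn* and *Postn* to *Tgfbi* differences kept their sign. The cause of the *Tnc* to *Tnn* sign changes was not tested.

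With the replicate number as a block, the differences were 3.66 for *Smoc1* to *Smoc2* and 2.86 for *Postn* to *Tgfbi*, each with an exact permutation p = 0.125, the smallest that 4 pairs allow. The block left 751 DEGs, as without it, of which 745 were shared. Samples with the same number did not deviate together (r -0.065 to 0.032 over genes, and 0 of 8 samples correlated best with their own number). This check cannot exclude pairing by number, because a batch correction, if applied to these values, could have removed a shared deviation. In the main test the numbers were taken as names only. Depth limits *Tnn*, *Postn* and *Vtn*, of which *Tnn* had at most 18 counts in a sample.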

Other observations

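The osteoblast markers tested were lower with IL-1β, whereas *Spp1*, a bone matrix gene outside that list, was higher (log2 fold change 0.80, adjusted p = 2.23e-19, edgeR). Of 6 osteoblast markers 5 were tested, and all 5 were lower at an adjusted p-value under 0.05, beside 19.8% of all genes tested. Of these, 4 were downregulated DEGs, beside 2.35% of all genes tested. The list summed to 54.0 to 63.8 CPM with IL-1β and 135.6 to 146.4 CPM with vehicle. *Sp7*, the gene of the transcription factor osterix, fell from 56.3 ± 3.58 to 20.8 ± 2.91 CPM (log2 fold change -1.42, adjusted p = 9.07e-17, edgeR), and *Alpl*, the alkaline phosphatase gene, from 40.8 ± 0.907 to 25.9 ± 1.24 CPM (-0.65, adjusted p = 9.49e-12, edgeR). *Ibsp*, named after its values were seen because it encodes the RGD protein bone sialoprotein, had 230 to 277 counts per vehicle sample and 11 to 26 per IL-1β sample (log2 fold change -3.69, adjusted p = 2.82e-19, edgeR). *Dmp1*, an osteocyte gene, had at most 1 count in any sample.

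The 5 muscle markers were low in both groups, at 0.360 to 0.772 CPM in sum with IL-1β and 1.85 to 2.83 CPM with vehicle, and none passed the filter on low counts. *Tnnt3*, the fast troponin T gene, supplied most of the difference, with 16 to 34 counts per vehicle sample and 1 to 2 per IL-1β sample, followed by *Acta1* with 10 to 15 and 3 to 9 counts. *Myh1* was at 0 in every sample.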
